A study of Mus musculus with 2 samples.

Results

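The low-UMI barcodes with macrophage RNA were droplet barcodes that held few transcripts and, among them, transcripts of macrophage marker genes. They were chosen from single-cell RNA libraries of cultured mouse bone marrow by 5 limits. A barcode needed 800 to under 3000 unique molecular identifiers (UMIs, each standing for 1 captured transcript), at least 300 genes, and a mitochondrial share of no more than 10%. It also needed at least 3 UMIs in the sum of Pf4, Ms4a7, Apoe, C1qa, C1qb and C1qc, and S100a8 with S100a9 below 3% of UMIs. In all 288 of 21428 barcodes met these limits. The DHT library held 261 of them among 10798 barcodes, and the Vehicle library held 27 among 10630.

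The cells came from the bone marrow of 1 male wild-type C57BL/6J mouse aged 3 months, and the labels call them osteoclast precursors. In the DHT group the adherent cells were given 5 ng/mL M-CSF and 1 nM 5α-dihydrotestosterone (DHT), a potent androgen, for 48 h in a medium depleted of hormones, and the Vehicle group received ethanol in its place. Both groups then had 24 h with 100 ng/mL M-CSF, 30 ng/mL RANKL and 10 ng/mL human TNF, with DHT or ethanol still present, and were lifted with EDTA and a scraper. Each group was 1 library of cells from the same mouse, so differences between the groups are given without a test and without knowledge of the spread between replicates. Ranges in parentheses are 95% intervals and take in counting error alone.

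Macrophages are phagocytes that engulf dying cells and debris and break them down in lysosomes. They depend on the growth factor M-CSF and its receptor Csf1r, and in bone their precursors can fuse into osteoclasts when RANKL is present. C1qa, C1qb and C1qc encode the 3 chains of C1q, the first component of complement, which many tissue macrophages make. Type I interferons bind a receptor shared by most cells and raise a large set of interferon-stimulated genes. In droplet libraries a barcode with few UMIs may hold a small, damaged or dying cell, a fragment of a cell, or free RNA. These cases cannot be told apart from counts alone.

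The DHT library held 319430510 UMIs and a median barcode of 13838, against 453802415 UMIs and a median barcode of 43120.5 in the Vehicle library. The libraries shared 33 barcode sequences, none of them among the low-UMI macrophage barcodes. These barcodes held 450340 UMIs in the DHT library and 46939 in the Vehicle library, which is 0.141% and 0.0103% of each library. In their pool 1 UMI was worth 2.22 CPM (UMIs scaled to a common pool size of 1e6) in the DHT library and 21.3 CPM in the Vehicle library. Levels in the Vehicle pool are therefore much the coarser.

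Low-UMI macrophage barcodes made up 2.42% (2.14 to 2.72) of all DHT barcodes and 0.254% (0.167 to 0.369) of all Vehicle barcodes. The ratio of these shares was 9.52 (6.39 to 14.7). Among barcodes of 800 to under 3000 UMIs that passed the gene and mitochondrial limits, the shares were 31.2% (28.1 to 34.4; 261 of 837) in the DHT library and 8.16% (5.44 to 11.6; 27 of 331) in the Vehicle library. That ratio was 3.82 (2.57 to 5.91). The DHT library thus had both more barcodes in the window and a larger share of them with the markers. Depth per barcode also differed between the libraries, and its part in these shares was not tested.

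**Figure D1:**
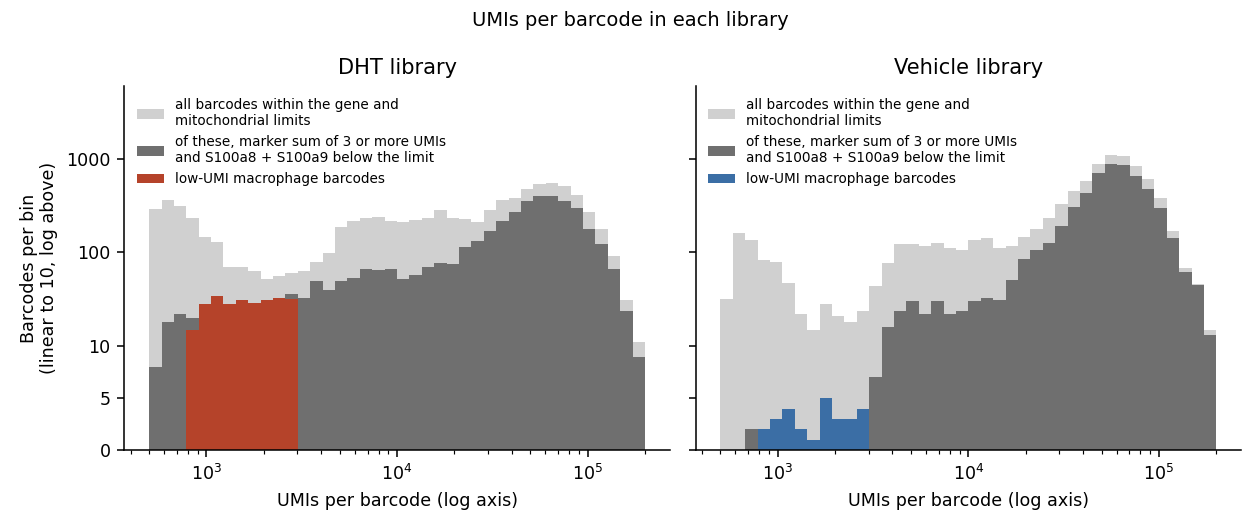
Number of barcodes per bin (linear to 10, log above) against UMIs per barcode (log axis) in the DHT library, left, and the Vehicle library, right. Light grey bars are barcodes within the gene and mitochondrial limits, dark grey bars are those that also meet the marker limits, and coloured bars are the low-UMI macrophage barcodes, 261 in the DHT library and 27 in the Vehicle library.

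Barcodes with the markers ran on past both ends of the window in each library. The share of barcodes with at least 0.2% of their UMIs from the 6 markers was compared across bins of depth, within the gene and mitochondrial limits. In the DHT library it was 15.3% from 500 UMIs, 26.1% from 800, 39.0% from 1200 and 45.7% from 1800, each bin running up to the next. It was 38.2% from 3000 to under 5000 UMIs and 5.03% at 80000 or more. In the Vehicle library the same bins gave 5.04%, 6.67%, 7.41%, 8.22%, 17.0% and 3.99%. The DHT share thus peaked inside the window, while the Vehicle share peaked at 27.7% between 5000 and 10000 UMIs, where the DHT share was 26.1%. From 10000 to under 20000 UMIs the DHT share was higher again, at 36.7%, against 14.5% in the Vehicle library. The Vehicle shares from 800, 1200 and 1800 UMIs rest on 13, 4 and 6 barcodes with that marker share.

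The values at the limits are a description of the choice. At the marker limit, 60 DHT and 12 Vehicle barcodes stood just inside with exactly 3 marker UMIs, and 112 and 23 stood just outside with 2. A further 214 DHT and 87 Vehicle barcodes had 1 marker UMI, and 231 and 185 had none. At the lower UMI limit, 15 DHT and 2 Vehicle barcodes had 800 to under 900 UMIs, and 23 and 2 otherwise alike had 700 to under 800. At the upper limit, 16 DHT barcodes and 1 Vehicle barcode had 2800 to under 3000 UMIs, and 21 and 2 stood less than 200 UMIs above it. The limit on S100a8 and S100a9 left out no barcode that met the others.

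The low-UMI macrophage barcodes were deeper than the rest of the window. DHT low-UMI macrophage barcodes had at least 802 UMIs with a median of 1589, and 468 to 1496 genes with a median of 810. Vehicle ones had 806 to 2898 UMIs with a median of 1829 and 402 to 1492 genes with a median of 998. The other barcodes of the window that passed the gene, mitochondrial and S100 limits with fewer than 3 marker UMIs had medians of 1036 UMIs in the DHT library and 1044 in the Vehicle library. The part of this gap in depth in the comparisons between them was not tested, except where values at like depth are given. Marker UMIs per barcode had a median of 6 in the DHT library, with a highest value of 77, and a median of 4 in the Vehicle library, with a highest value of 13.

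Pf4, the chemokine platelet factor 4 that some macrophages make as well as platelets, supplied most of the marker UMIs. It gave 60.4% of them in the DHT library and 53.4% in the Vehicle library, and was found in 228 of 261 and in 20 of 27 low-UMI macrophage barcodes. Apoe, a lipid carrier secreted by macrophages, was found in 135 DHT and 7 Vehicle barcodes, and Ms4a7, a membrane protein of macrophages, in 123 and 7. At least 1 of the 3 C1q genes was found in 139 DHT barcodes (53.3%) and 12 Vehicle barcodes (44.4%). Only 47 DHT barcodes and 1 Vehicle barcode had 3 or more C1q UMIs. All 6 markers occurred together in 6 DHT barcodes and in none of the Vehicle ones. The set is thus held together by Pf4 more than by complement, and 39 DHT and 7 Vehicle barcodes carried Pf4 as their only marker.

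Another 2 sets of barcodes from the same libraries served for comparison. Deep C1q barcodes had at least 5000 UMIs, at least 0.2% of UMIs from the 3 C1q genes, and met the same gene, mitochondrial and S100 limits. There were 152 in the DHT library, with a median of 27701.5 UMIs, and 56 in the Vehicle library, with a median of 57219. Other window barcodes had 800 to under 3000 UMIs and passed the same limits with fewer than 3 marker UMIs, 557 in the DHT library and 295 in the Vehicle library. CPM below are pooled over the barcodes of a set within a library.

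Levels of the 6 markers follow from how the sets were chosen and are given as a description. Pf4 stood at 3304 CPM in DHT and 1513 CPM in Vehicle low-UMI macrophage barcodes, against 3599 and 1720 CPM in deep C1q barcodes and 344 and 213 CPM in other window barcodes. C1qa stood at 318 and 85.2 CPM in DHT and Vehicle low-UMI macrophage barcodes, against 1430 and 989 CPM in deep C1q barcodes and 33.5 and 10.4 CPM in other window barcodes. Apoe stood at 846 and 639 CPM, against 751 and 516 CPM and then 125 and 46.8 CPM, in the same order of sets. Summed over the 6 markers, the low-UMI macrophage barcodes held 0.636 times the deep level in the DHT library and 0.511 times in the Vehicle library. They held 8.56 and 8.19 times the level of the other window barcodes.

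**Figure D2:**
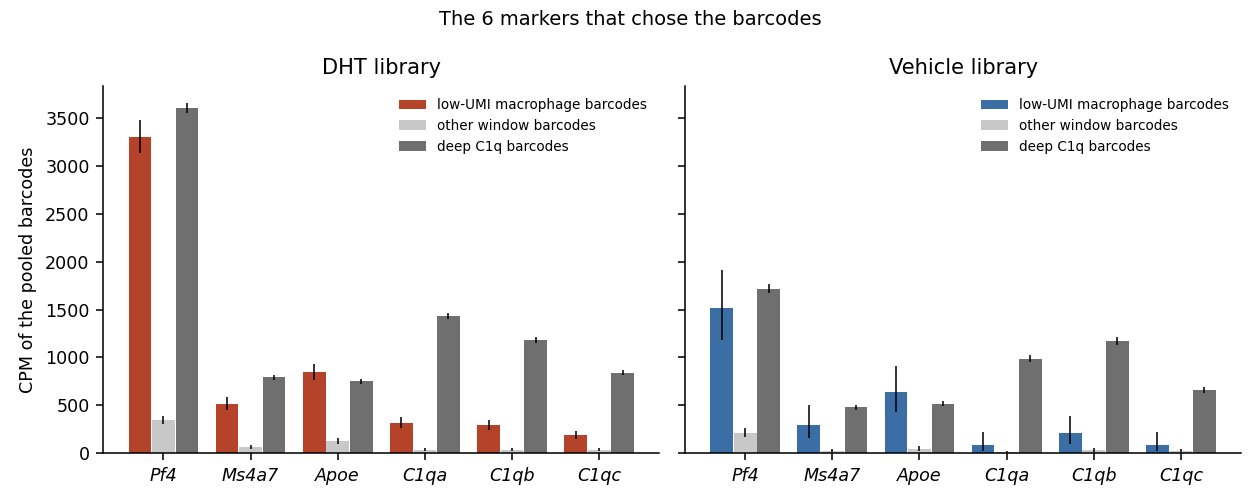
CPM of the 6 markers that chose the barcodes, pooled over low-UMI macrophage, deep C1q and other window barcodes, in the DHT library, left, and the Vehicle library, right; bars start at 0 and error bars are 95% counting intervals. Pf4 is near the deep level in both libraries (3304 against 3599 CPM in the DHT library), while C1qa is well below it (318 against 1430 CPM).

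Macrophage genes that the limits did not use were abundant in these barcodes. A list of 25 such markers summed to 30490 CPM in DHT and 30337 CPM in Vehicle low-UMI macrophage barcodes. The other window barcodes held 14048 and 14407 CPM, so the sums were 2.17 and 2.11 times higher in the low-UMI macrophage barcodes. All 25 genes had at least 1 UMI in the DHT pool. In the Vehicle pool Mertk and Axl, receptors for the uptake of dying cells, were at 0, where 3 counts would be 63.9 CPM.

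Lyz2, lysozyme of myeloid cells, led the list at 17154 CPM (16773 to 17541) in DHT and 16340 CPM (15204 to 17539) in Vehicle low-UMI macrophage barcodes, against 6326 and 5993 CPM in other window barcodes. Its paralogue Lyz1 is nearly identical and could share reads with it. The ferritin chains that store iron were as high: Fth1 reached 28014 CPM in DHT and 20772 CPM in Vehicle low-UMI macrophage barcodes, against 9284 and 10590 CPM in other window barcodes. Aif1, a calcium-binding protein of macrophages, had 526 and 277 CPM in DHT and Vehicle low-UMI macrophage barcodes, against 127 and 57.2 CPM in other window barcodes. Csf1r, the M-CSF receptor, did not follow, with 200 and 298 CPM against 242 and 252 CPM. A single Vehicle barcode held 25.8% of the Lyz2 UMIs of its pool and a single one held 22.2% of the Fth1 UMIs, and without these barcodes the Vehicle values were 12874 and 16851 CPM.

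Markers of several other blood cell types were at or near 0. The list of 11 platelet and megakaryocyte markers, which leaves out Pf4, had 3 UMIs in the DHT pool, all of Ppbp, the gene next to Pf4 that platelets also make. It had none in the Vehicle pool. The 9 erythroid markers had 0 UMIs in both pools, and the 8 T and NK cell markers had 0 and 1. Conventional dendritic cell markers gave 2 DHT UMIs and 0 Vehicle UMIs, and mast cell markers likewise 2 and 0. The B lineage list had 55 UMIs in 13 DHT barcodes, 26 of them from 1 barcode, and none in the Vehicle pool. Stromal and endothelial markers gave 14 DHT UMIs and 1 Vehicle UMI.

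Lists of 2 other cell types were well above 0. The 7 plasmacytoid dendritic cell markers had 354 UMIs (786 CPM) in 169 of 261 DHT and 18 UMIs (383 CPM) in 11 of 27 Vehicle low-UMI macrophage barcodes, against 1104 and 410 CPM in deep C1q barcodes and 448 and 348 CPM in other window barcodes. Bst2, which is interferon-stimulated as well, gave 84.2% of these UMIs in the DHT library, while Siglech and Cox6a2 were at 0 in both libraries and Ccr9 had 1 DHT UMI. The 8 monocyte markers, led by the surface antigen gene Ly6c2, had 624 CPM in DHT and 533 CPM in Vehicle low-UMI macrophage barcodes, against 1242 and 614 CPM in other window barcodes. The monocyte sums were 0.781 and 1.32 times the deep C1q levels of the DHT and Vehicle libraries. Macrophage markers outside the limits were thus more abundant than in the other window barcodes, as the label has it, but Lyz2, a gene of myeloid cells at large, made up 56.3% of that sum in the DHT library, and Csf1r was not higher in the DHT library.

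Transcripts of neutrophils and their progenitors were present as well. A list of 15 neutrophil markers that leaves out S100a8 and S100a9 summed to 1672 CPM in DHT and 916 CPM in Vehicle low-UMI macrophage barcodes. That was 4.14 times (3.8 to 4.5) and 5.04 times (3.61 to 6.89) the deep C1q levels of 404 and 182 CPM. It was 0.349 and 0.334 times the levels in other window barcodes, 4791 and 2746 CPM. Over whole libraries the same list was 9704 CPM in DHT and 3457 CPM in Vehicle.

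Camp, an antimicrobial granule peptide of neutrophils, showed the pattern, with 442 CPM in DHT and 341 CPM in Vehicle low-UMI macrophage barcodes, against 63.1 and 22.9 CPM in deep C1q barcodes. It was found in 112 of 261 and in 8 of 27 barcodes, so it was not carried by a few. Prtn3 and Elane, serine proteases made by granulocyte progenitors, had 164 and 93.3 CPM in DHT and 85.2 and 63.9 CPM in Vehicle low-UMI macrophage barcodes. In deep C1q barcodes they had 7.46 and 7.86 CPM in the DHT library and 2.82 and 4.22 CPM in the Vehicle library. The list of 5 progenitor markers summed to 513 and 192 CPM in DHT and Vehicle low-UMI macrophage barcodes, against 29.8 and 12.7 CPM in deep C1q barcodes and 2091 and 325 CPM in other window barcodes. The Vehicle values for Prtn3 and Elane rest on 4 and 3 UMIs. Whether this RNA came from the same cell as the macrophage RNA was not tested.

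Set against deep C1q barcodes, the low-UMI macrophage barcodes differed in both directions. Of 3271 genes that reached 50 CPM in either set of each library, 111 (3.39%) were at least 1.5-fold higher in both libraries and 366 (11.2%) at least 1.5-fold lower in both. The median log2 ratio over these genes was -0.15 in the DHT library and -0.02 in the Vehicle library. By the size of the smaller ratio, the 12 highest genes held Prtn3, Elane, Pglyrp1, Ngp, Camp, S100a8, S100a9, Lcn2 and Chil3, which granulocytes or their progenitors express, with Cmss1, Ctsk and Spc24. The 12 lowest included C1qa, C1qb and C1qc, which chose the deep set, and Ralgapa2, Gab2, Lrmda, Pam, Trps1, Cdk14, Zdhhc14 and Ago3.

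The most abundant single feature was Gm42418 (chr17:39846958-39848788, plus strand, GRCm38), a noncoding locus known to collect ribosomal RNA reads. It took 10.8% of UMIs in DHT and 7.97% in Vehicle low-UMI macrophage barcodes, against 4.98% and 3.20% in deep C1q barcodes. The log2 ratios were 1.12 and 1.32. By barcode, 253 of 261 DHT and 26 of 27 Vehicle barcodes lay above the deep median of their library. The same share was 11.2% and 6.92% in other window barcodes, so the difference was from the deep set and not from the window. AY036118 (chr17:39847113-39848035) lies inside Gm42418 on the opposite strand and had 2400 and 2237 CPM in DHT and Vehicle low-UMI macrophage barcodes, against 340 and 459 CPM in deep C1q barcodes. Whether strand was used in counting is not given in the sources used here, so reads of the pair cannot be told apart.

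Cmss1 (chr16:57302000-57606864), named for its likeness to a yeast factor of the small ribosomal subunit, stood at 9742 CPM (9455 to 10034) in DHT and 10801 CPM (9881 to 11784) in Vehicle low-UMI macrophage barcodes. Deep C1q barcodes held 1691 and 1568 CPM, for log2 ratios of 2.53 and 2.78. The median barcode gave it 0.917% of UMIs in the DHT and 0.984% in the Vehicle low-UMI macrophage barcodes, against 0.138% and 0.156% in deep C1q barcodes. Here 246 of 261 DHT and 24 of 27 Vehicle barcodes exceeded the deep median. Other window barcodes had 6870 and 4787 CPM, between the other sets. Camk1d, a calcium-dependent kinase gene that spans 421 kb, moved likewise with 6473 and 5092 CPM in DHT and Vehicle low-UMI macrophage barcodes, against 2612 and 1487 CPM in deep C1q barcodes.

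Genes of the G2 and M phases of the cell cycle summed to 2634 CPM in DHT and 2919 CPM in Vehicle low-UMI macrophage barcodes, against 1182 and 2236 CPM in deep C1q barcodes. Of 15 measured, 6 were higher in both libraries and 0 lower, beside 3.39% and 11.2% of all genes. Ube2c, which loads ubiquitin on mitotic cyclins, led with 211 and 405 CPM against 48.4 and 127 CPM. Against deep barcodes with at least 3 C1q UMIs and no limit on their share, both sums turned lower, with log2 ratios of -0.75 in each library. That wider set held 1446 DHT and 2062 Vehicle barcodes, against 152 and 56 deep C1q barcodes, so it is a much looser choice.

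Osteoclast markers summed to 1370 CPM in DHT and 1853 CPM in Vehicle low-UMI macrophage barcodes, against 1447 and 839 CPM in deep C1q barcodes and 2438 and 2600 CPM in other window barcodes. Of 8 measured, Acp5, Nfatc1, Jdp2 and Ctsk were higher in both libraries and 0 were lower, beside 3.39% and 11.2% of all genes. Ctsk, the collagen-degrading protease of osteoclasts, had 79.9 and 128 CPM against 18.3 and 14.8 CPM in deep C1q barcodes, and Nfatc1, a master regulator of osteoclasts, had 99.9 and 170 CPM against 35.5 and 33.8 CPM. Both were lower than in other window barcodes, where Ctsk had 200 and 309 CPM. Against deep barcodes with at least 3 C1q UMIs and no limit on their share, Ctsk was lower in the low-UMI macrophage barcodes, with log2 ratios of -0.85 and -0.35.

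Mitochondrially encoded mRNAs were lower than in deep C1q barcodes. They summed to 7554 CPM in DHT and 13443 CPM in Vehicle low-UMI macrophage barcodes, against 23907 and 24499 CPM, which gives ratios of 0.316 and 0.549. Of 11 measured, 8 were at least 1.5-fold lower in both libraries and 0 higher, beside 11.2% and 3.39% of all genes. The limit of 10% set an upper bound for every set alike. The median barcode had 0.405% in DHT and 0.969% in Vehicle low-UMI macrophage barcodes, against 2.00% and 2.35% in deep C1q barcodes and 1.65% and 2.49% in other window barcodes. Of the DHT low-UMI macrophage barcodes, 59 of 261 lay below the lowest Vehicle one.

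The low mitochondrial share was not special to these barcodes. Window barcodes with at least 3% of UMIs from S100a8 and S100a9, called S100-high here, should hold neutrophil RNA, and their medians were 0.408% in the DHT library and 0.485% in the Vehicle library. All DHT barcodes of 3000 to under 5000 UMIs within the gene and mitochondrial limits had a median of 0.389%. At like depth, a comparison added after seeing the data, DHT low-UMI macrophage barcodes had medians of 0.769%, 0.394% and 0.258% from 800, 1200 and 1800 UMIs, against 1.80%, 0.931% and 0.818% in other window barcodes. The Vehicle ones had 1.08%, 0.969% and 0.826%, against 2.52%, 2.68% and 0.606%, so the 14 Vehicle barcodes of 1800 UMIs or more were not lower.

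Malat1, a long noncoding RNA retained in the nucleus, was also lower. It had 1796 CPM in DHT and 1278 CPM in Vehicle low-UMI macrophage barcodes, against 5054 and 4528 CPM in deep C1q barcodes and 4783 and 6763 CPM in other window barcodes. The log2 ratios to deep C1q barcodes were -1.49 and -1.82. A single DHT barcode held 16.4% of the Malat1 UMIs of its pool. The median barcode gave Malat1 0.107% of UMIs in the DHT and 0.0808% in the Vehicle low-UMI macrophage barcodes, against 0.352% and 0.339% in deep C1q barcodes. Kcnq1ot1, another nuclear noncoding RNA, had 15.5 and 42.6 CPM against 72.8 and 126 CPM.

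**Figure D3:**
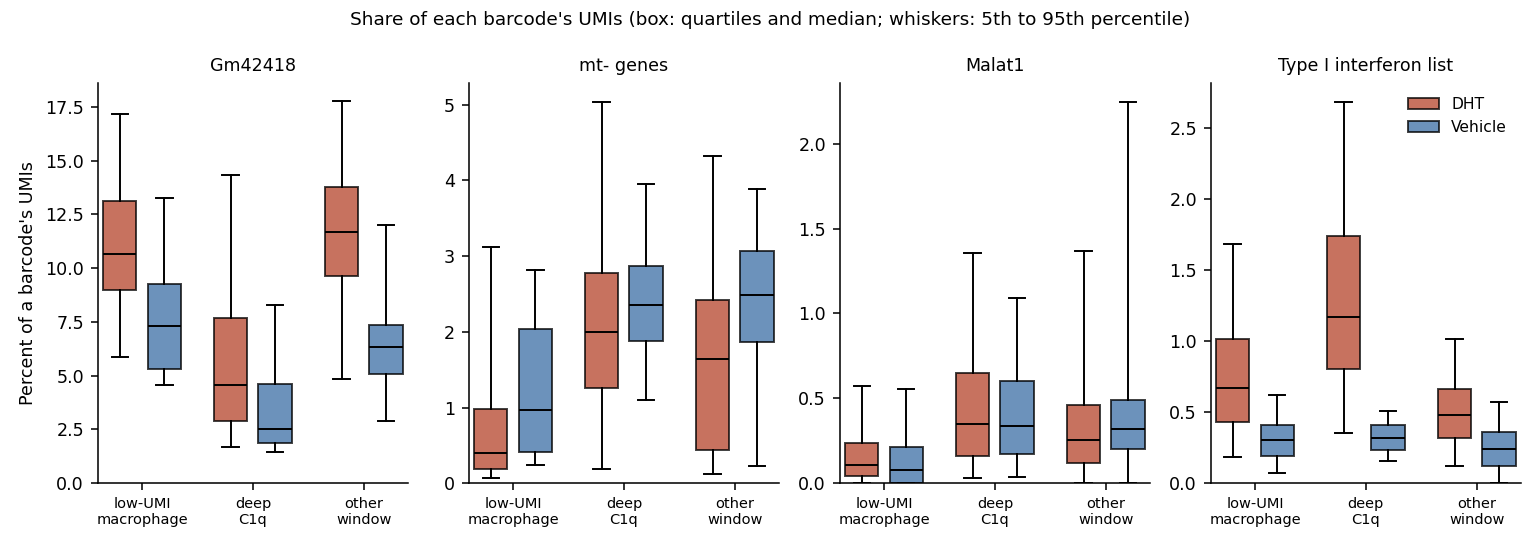
Percent of each barcode's UMIs from Gm42418, mitochondrial genes, Malat1 and the type I interferon list, in DHT (red) and Vehicle (blue) barcodes of 3 sets; boxes are quartiles with the median and whiskers run from the 5th to the 95th percentile of barcodes. Low-UMI macrophage barcodes have more Gm42418 than deep C1q barcodes (medians 10.7% and 7.32% against 4.59% and 2.52%), and less mitochondrial and Malat1 RNA than both other sets.

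Long genes were under-represented relative to short ones. Genes were grouped by their span from start to end in the GENCODE M21 annotation of GRCm38, introns included. For the 377 measured genes under 5 kb the median log2 ratio to deep C1q barcodes was 0.15 in the DHT library and -0.04 in the Vehicle library. It was -0.33 and 0.00 for the 933 genes of 30 to 100 kb, -0.86 and -0.38 for the 405 genes of 100 to 300 kb, and -1.23 and -0.999 for the 85 genes of 300 kb or more. The share of genes at least 1.5-fold lower in both libraries was 3.45% under 5 kb, 32.1% at 100 to 300 kb and 55.3% at 300 kb or more. Against other window barcodes the medians for genes of 300 kb or more were -1.05 and -1.01, and the medians fell from 30 kb upward there too. Below 30 kb there was no common order, and in the Vehicle library genes of 10 to 30 kb had the highest median over deep C1q barcodes, at 0.15. How intronic reads were counted is not given in the sources used here, and the part of span in each gene's ratio was not tested.

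Lrmda, linked to melanocyte differentiation in humans and spanning 1036 kb, had 173 CPM in DHT and 128 CPM in Vehicle low-UMI macrophage barcodes, against 926 and 603 CPM in deep C1q barcodes. Cdk14, a cyclin-dependent kinase gene of 617 kb, had 131 and 42.6 CPM against 530 and 482 CPM. Trps1, a zinc finger repressor gene of 236 kb, had 95.5 and 21.3 CPM against 440 and 353 CPM. Cmss1 and Camk1d span 305 and 421 kb and went the other way, so the grouping by span did not describe every long gene.

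**Figure D4:**
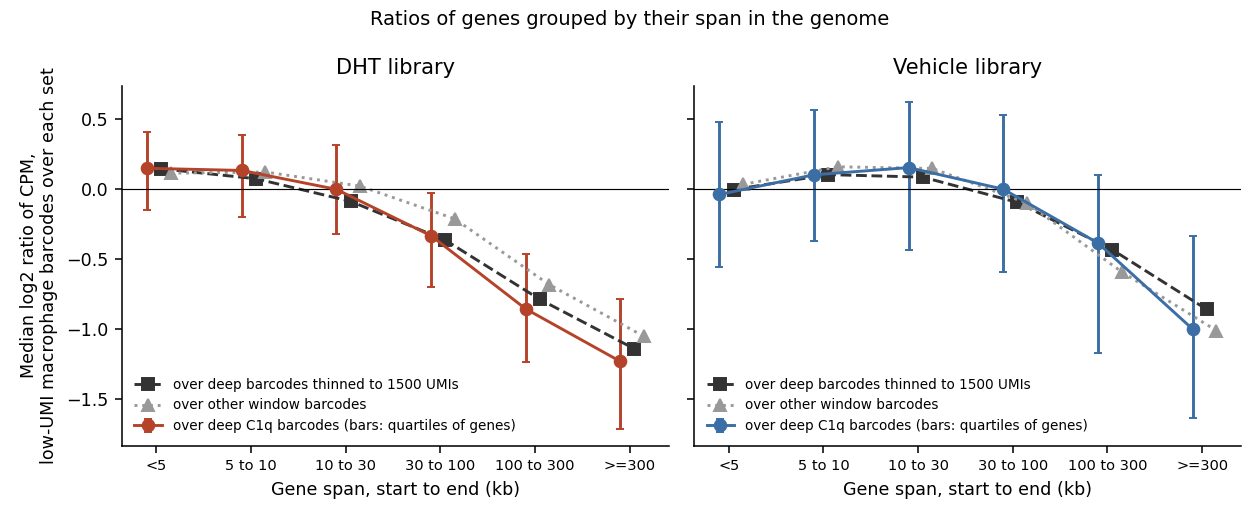
Median log2 ratio of CPM in low-UMI macrophage barcodes over deep C1q barcodes (bars are quartiles of genes), over deep barcodes thinned to 1500 UMIs and over other window barcodes, for genes grouped by span in kb, in the DHT library, left, and the Vehicle library, right. The thinned barcodes came from all those of at least 5000 UMIs within the gene and mitochondrial limits, not from deep C1q barcodes alone. After thinning they were chosen by the marker and S100 limits. All 3 lines fall with span from the group of 10 to 30 kb upward, to -1.23 in the DHT library and -0.999 in the Vehicle library over deep C1q barcodes at 300 kb or more.

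Genes for the uptake of dying cells were lower than in deep C1q barcodes. The list of 15 efferocytosis receptors and bridging genes summed to 1099 CPM in DHT and 852 CPM in Vehicle low-UMI macrophage barcodes, against 3227 and 2585 CPM in deep C1q barcodes. Of 7 measured, C1qa among them, Lrp1, Stab1 and Elmo1 were lower in both libraries and 0 were higher, beside 11.2% and 3.39% of all genes. C1qa was lower too, but it helped to choose the deep set, so its direction is a description. C1qa, which chose the sets, made up 28.9% of the sum in DHT and 10.0% in Vehicle low-UMI macrophage barcodes, against 44.3% and 38.2% in deep C1q barcodes. Without it, as computed after seeing the data, the sums were 782 and 767 CPM against 1797 and 1596 CPM, with ratios of 0.435 and 0.480. Stab1, a scavenger receptor for phosphatidylserine, had 142 and 128 CPM against 407 and 329 CPM, and Lrp1, a large endocytic receptor, had 127 and 107 CPM against 441 and 443 CPM. Adgre1, which encodes the macrophage antigen F4/80, had 149 and 128 CPM against 467 and 283 CPM. Stab1 spans 29.6 kb, Lrp1 83.0 kb and Adgre1 125 kb, and the part of span in these ratios was not tested. For Stab1 and Adgre1 in the Vehicle library the direction turned against deep barcodes with at least 3 C1q UMIs, at log2 ratios of 0.03 and 0.02.

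The macrophage list as a whole stood at 0.763 times the deep C1q level in the DHT library and 0.757 times in the Vehicle library. A further set came from all barcodes of at least 5000 UMIs within the gene and mitochondrial limits, with no limit on C1q share. They were thinned to 1500 UMIs and then chosen by the marker and S100 limits of the low-UMI macrophage barcodes. That left 1030 DHT and 897 Vehicle barcodes, against 152 and 56 deep C1q barcodes. Against the thinned set the sign for the macrophage list turned, with log2 ratios of 0.07 and 0.22. The macrophage level was therefore lower or higher depending on how the deep barcodes were chosen. The patterns that follow kept their direction in both libraries against the thinned barcodes. Their log2 ratios in the DHT and Vehicle libraries were 0.83 and 0.97 for Gm42418, 1.85 and 2.52 for Cmss1, and -1.23 and -1.56 for Malat1. They were -1.67 and -0.93 for mitochondrial mRNAs, 1.86 and 2.15 for the neutrophil list, and -1.14 and -0.86 for the median gene of 300 kb or more.

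Across all genes of at least 200 CPM, without those the limits used, the pools were also set side by side by the correlation of log2(CPM + 10). The DHT low-UMI macrophage pool had r = 0.904 with other window barcodes and 0.879 with deep C1q barcodes. The Vehicle one had r = 0.821 with other window barcodes and 0.864 with deep C1q barcodes. With all barcodes of their library the DHT and Vehicle pools had r = 0.870 and 0.861, close to the values with deep C1q barcodes. Other window barcodes had r = 0.747 and 0.821 with deep C1q barcodes in the DHT and Vehicle libraries. These describe genes within shared libraries, which are not replicates, and the smaller Vehicle pool has more counting noise.

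Low-UMI macrophage barcodes differed among themselves along their marker content, which is given here for the 261 DHT barcodes as a description. The 92 barcodes with 3 to 4 marker UMIs, the 86 with 5 to 9 and the 83 with 10 or more had 19273, 27987 and 41100 CPM of the macrophage list. Lyz2 in the same order was 9640, 14756 and 24851 CPM, and Fth1 was 15596, 24070 and 40721 CPM. The neutrophil list ran the other way with 2527, 1587 and 1090 CPM, as did the progenitor list with 1008, 392 and 235 CPM. Malat1 was 3068, 1504 and 1067 CPM, and mitochondrial genes were 1.21%, 0.701% and 0.454% of UMIs. Gm42418 had no such order, at 110319, 115779 and 101052 CPM. Barcodes near the marker limit thus had the most neutrophil and progenitor RNA, and those with the most marker UMIs had the most macrophage and the least Malat1, mitochondrial and neutrophil RNA.

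The 27 Vehicle barcodes split into 16, 9 and 2 over the same ranges of marker UMIs. Their macrophage list was at 22750, 43123 and 31630 CPM and their mitochondrial share was 1.80%, 0.742% and 0.426%. In the DHT library the UMI count itself went with the same genes, and its part in the order by marker UMIs was not tested. The 75 barcodes with under 1200 UMIs, the 78 from 1200 and the 108 from 1800 had 23571, 29354 and 33056 CPM of the macrophage list, and 3088, 1802 and 1194 CPM of the neutrophil list.

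The study compares DHT with Vehicle, and its title names interferon signalling. In low-UMI macrophage barcodes the 66 genes of a type I interferon-stimulated list summed to 8112 CPM (3653 UMIs) in the DHT library and 3196 CPM (150 UMIs) in the Vehicle library. The ratio was 2.54 (2.16 to 3.01), and 2.70 without Ifitm3, the most abundant member. Of 32 list genes that reached 50 CPM in either library, 19 were at least 1.5-fold higher in DHT and 2 lower, against 593 (15.9%) higher and 1350 (36.1%) lower among all 3736 genes measured, of which 1303 had only 1 to 3 Vehicle UMIs. The median log2 ratio of the list was 0.85 and that of all genes -0.29. The 2 lower genes were Ifi27, with 77.7 CPM in DHT and 256 CPM in Vehicle, and Slfn8, which rests on 3 Vehicle UMIs.

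By barcode, the list took a median of 0.671% of UMIs in DHT and 0.307% in Vehicle low-UMI macrophage barcodes. The groups overlapped, but 101 of 261 DHT barcodes lay above the highest Vehicle one, which had 0.808%, and 228 lay above the Vehicle median. After thinning to 800 UMIs the median barcode held 5 UMIs of the list in DHT and 2 in Vehicle. Deep C1q barcodes had a wider gap, with medians of 1.17% in DHT and 0.321% in Vehicle and a ratio of sums of 3.74 (3.66 to 3.82). Other window barcodes had a ratio of 2.03 (1.89 to 2.18). The low-UMI macrophage barcodes thus lay between the other sets, and their Vehicle level of 3196 CPM was close to the deep Vehicle level of 3211 CPM. Markers of neutrophils also stood higher in the DHT pool, at 1672 against 916 CPM. So did granulocyte-monocyte progenitor markers, at 513 against 192 CPM, the latter on 9 UMIs. The part of both lists in the interferon difference was not tested.

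Isg15, a ubiquitin-like protein that interferon induces (chr4:156199424-156200818), had 118 UMIs in 72 DHT low-UMI macrophage barcodes and none in the 27 Vehicle ones. That is 262 CPM (217 to 314), or 4.10 times the floor of 63.9 CPM for 3 UMIs over the Vehicle pool, without counting error. Deep C1q barcodes had 301 CPM in DHT and 8.10 CPM in Vehicle, so the Vehicle pool of low-UMI macrophage barcodes is too shallow to show a level of that size. After every barcode was thinned to 800 UMIs, 14.2% (10.2 to 19.0) of DHT barcodes had an Isg15 UMI, 27.6% before thinning, and 0 of 27 Vehicle barcodes, which allows up to 11.1% by the floor of 3 counts and up to 12.8% by the exact interval. The S100-high window barcodes, which should hold little RNA of a macrophage, gave when thinned alike 10.5% of 19 in the DHT library and 0 of 9 in the Vehicle library. The median barcode before thinning had 1589 UMIs in DHT and 1829 in Vehicle low-UMI macrophage barcodes, and 1607 and 2482 in the S100-high barcodes. With only 19 S100-high DHT barcodes this comparison cannot show whether the shares differ, and nothing is drawn from it. By CPM, Isg15 in DHT low-UMI macrophage barcodes stood near the deep DHT level.

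Irf7, the transcription factor that amplifies interferon production, had 103 UMIs in DHT and 0 in Vehicle low-UMI macrophage barcodes. Its DHT level was 3.58 times the floor of 3 Vehicle UMIs. Ifi27l2a had 637 CPM in DHT and 42.6 CPM in Vehicle, a ratio of 15 (4.10 to 124) that rests on 2 Vehicle UMIs. The abundant genes of the list differed less between the groups. Ifitm3, which blocks virus entry, had 1659 CPM in DHT and 810 CPM in Vehicle, a ratio of 2.05 (1.48 to 2.92). Ly6e, a surface protein, had 1186 and 575 CPM with a ratio of 2.06 (1.40 to 3.16), and Bst2, which tethers budding viruses, had 662 and 277 CPM with a ratio of 2.39 (1.38 to 4.54).

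Genes of antigen presentation were higher with them. The list of interferon gamma-inducible and antigen processing genes summed to 5325 CPM in DHT and 2493 CPM in Vehicle low-UMI macrophage barcodes, a ratio of 2.14 (1.77 to 2.59). Of 11 measured, 8 were higher and 0 lower, beside 15.9% and 36.1% of all genes. B2m, the light chain of class I molecules, had 2012 and 831 CPM with a ratio of 2.42 (1.76 to 3.43). The heavy chain genes H2-K1 and H2-D1, which resemble other class I genes and could share reads with them, had 844 and 826 CPM in DHT and 405 and 213 CPM in Vehicle. In deep C1q barcodes the list's ratio was 2.39 and in other window barcodes 1.35. Class II genes summed to 1035 and 788 CPM, and the interval of their ratio, 0.938 to 1.89, held 1.

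Ccl2, the chemokine that draws monocytes, had 148 UMIs in 69 DHT low-UMI macrophage barcodes and none in the Vehicle ones. Its DHT level was 5.14 times the floor of 3 Vehicle UMIs. Deep C1q barcodes did not show such a difference, with 551 CPM in DHT and 529 CPM in Vehicle. Slpi, a secreted protease inhibitor, had 1215 CPM in DHT and 405 CPM in Vehicle low-UMI macrophage barcodes, a ratio of 3.00 (1.90 to 5.02), against 1255 and 981 CPM in deep C1q barcodes. The list of inflammatory NF-kB genes that holds Ccl2 had a ratio of 1.12 (0.924 to 1.37), with 5 of 13 measured genes higher and 2 lower, beside 15.9% and 36.1% of all genes. The 5 were Rela, Ccl7, Lcn2, Birc3 and Ccl2, and the 2 were Traf1 and Nfkbia.

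Mitochondrially encoded mRNAs were lower in DHT than in Vehicle low-UMI macrophage barcodes. They summed to 7554 and 13443 CPM, a ratio of 0.562 (0.516 to 0.613), and 9 of 11 measured were lower and 0 higher, beside 36.1% and 15.9% of all genes. mt-Cytb, a subunit of complex III, had 657 CPM in DHT and 1470 CPM in Vehicle, and mt-Co3, a subunit of complex IV, 1430 and 2620 CPM. The same sum had a ratio of 0.976 in deep C1q barcodes and 0.769 in other window barcodes. The size of this difference changed with the barcodes taken. The ratio of the sums was 0.965 among barcodes of 800 to under 1500 UMIs and 0.426 among deeper ones, 0.821 with a marker sum of at least 5 and 0.397 with a mitochondrial limit of 20%. For mt-Co3 the direction turned among barcodes of 800 to under 1500 UMIs, at a log2 ratio of 0.08.

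Some nuclear genes were also lower in DHT. Lpl, the lipase that releases fatty acids from lipoproteins, had 1061 CPM in DHT and 2130 CPM in Vehicle low-UMI macrophage barcodes, but 1 barcode held 23% of the Vehicle UMIs and the direction turned among barcodes of 800 to under 1500 UMIs, at 0.55. Cd44, a receptor for hyaluronan, had 386 and 810 CPM with a ratio of 0.477 (0.334 to 0.697). Nfkbia, the inhibitor that holds NF-kB in the cytoplasm, had 433 and 788 CPM with a ratio of 0.549 (0.385 to 0.803). Junb, an immediate early transcription factor, had 266 and 533 CPM with a ratio of 0.5 (0.323 to 0.804). A single Vehicle barcode held 18.9% of the Nfkbia UMIs of its pool and a single one held 24.0% of the Junb UMIs. Without these barcodes the Vehicle values were 666 and 422 CPM. In deep C1q barcodes Cd44, Nfkbia and Junb had log2 ratios of 0.14, 0.30 and 0.37.

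Macrophage identity genes as a list had nearly equal sums in both groups. The 25 markers outside the limits had a DHT over Vehicle ratio of 1.01 (0.952 to 1.06), with 3 higher and 3 lower of 20 measured, Aif1 among the higher and Lgals3 among the lower, beside 15.9% and 36.1% of all genes. A single Vehicle barcode held 16.9% of the Vehicle UMIs of the list, and without it the ratio was 1.14, a value computed after seeing the data. The ratio was 0.855 with a marker sum of at least 5 and 1.34 under TMM scaling, so which group was higher depended on the barcodes and scaling used. Lysosomal genes had a ratio of 0.95 (0.873 to 1.04), and their log2 ratio turned to 0.34 under TMM scaling. Of 23 measured, 4 were higher, Npc2 among them, and 2 lower (Man2b1 and Asah1), beside the same shares of all genes. Cmss1 had 9742 CPM in DHT and 10801 CPM in Vehicle, a log2 ratio of -0.15 that turned to 0.26 under TMM scaling and 0.25 under median-of-ratios scaling.

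**Figure D5:**
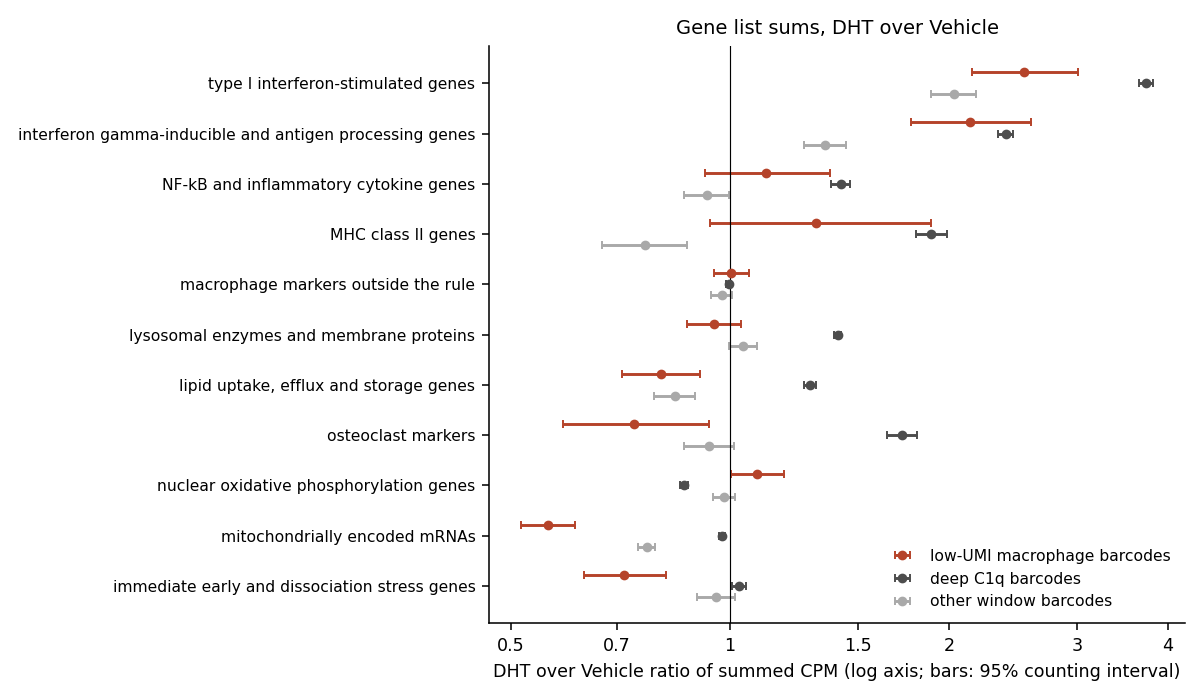
DHT over Vehicle ratio of the summed CPM of 11 gene lists (log axis) in low-UMI macrophage, deep C1q and other window barcodes; points are ratios and bars 95% counting intervals. In low-UMI macrophage barcodes both interferon lists lie above 1 (2.54 and 2.14) and mitochondrially encoded mRNAs below it (0.562), and the osteoclast list lies below 1 while it lies above in deep C1q barcodes. TMM scaling, not drawn here, takes the osteoclast ratio in low-UMI macrophage barcodes close to 1.

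The count of genes changed at 1.5-fold between the groups rests on very few Vehicle UMIs. The minimum of 50 CPM is 22.5 UMIs in the DHT pool and 2.35 in the Vehicle pool, so 1 UMI more or less in the Vehicle pool can decide a call. Among the 268 genes with a mean of at least 500 CPM, 14 (5.22%) were higher in DHT and 25 (9.33%) lower, with a median log2 ratio of -0.02. Ifitm3, Ly6e, B2m, H2-K1, H2-D1 and Slpi were among the 14, and Lpl, Cd44, Nfkbia, Hspa8, Vim and Lgals3 among the 25. TMM and median-of-ratios scaling moved every log2 ratio up by 0.41 and 0.40, and under TMM 1347 genes were higher and 807 lower in DHT, in place of 593 and 1350.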

How the data were processed

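Single-cell 3′ gene expression was measured in 1 DHT and 1 Vehicle library. The authors deposited sparse tables of raw UMI counts, not normalized. Cell Ranger 7.0.1 is the tool in the submitters' processing notes, which list mm10 and GRCh38 without saying what each was for. The sources used here do not give the cell calling, intron counting or strand use. The low-UMI macrophage barcodes and the gene lists were chosen with earlier results of these data known.

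Counts of the 32285 genes were summed over the barcodes of each set and divided by the total to give CPM. Intervals at 95% were exact Poisson for CPM, Clopper-Pearson for shares and conditional binomial for ratios. PCR and free RNA add error that these do not cover. A gene counted as measured at 50 CPM or more, and as changed at 1.5-fold or more. A set at 0 was given a floor of 3 counts over the set. With 1 library per group no p-value was made.

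Named genes were the 12 highest and 12 lowest of each comparison without mitochondrial, ribosomal protein, immunoglobulin, sex-linked and predicted genes. To them came the leading and extreme members of the 31 lists (518 genes) and a set fixed by name. AY036118, Camk1d, Slpi and Cd44 were named after their values were seen, as were the changed members of short counts. Some genes are not reported here. Positions came from GENCODE M21 (GRCm38, the assembly of mm10), which matched 32235 identifiers (99.8%).

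Doublets were not removed. Scrublet at an expected rate of 0.08 called 203 DHT and 156 Vehicle barcodes, of which 5 and 0 were low-UMI macrophage barcodes. Alternatives were other UMI ranges, marker limits, deep sets, CPM minimums and scalings. The steps were tested on simulated counts. There many unchanged genes passed 1.5-fold in each single comparison that used the Vehicle low-UMI macrophage pool. Python 3.11.15, numpy 2.4.6, scipy 1.17.1, pandas 2.3.3, scanpy 1.11.5 and matplotlib 3.10.9 were used.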

Additional observations from a re-analysis of the deposited data

Results flagged for a closer look

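A group of barcodes left out by the mitochondrial limit met every other limit of the low-UMI macrophage barcodes. There were 43 in the DHT library and 3 in the Vehicle library, with medians of 59.4% and 78.3% mitochondrial UMIs. None lay between 10% and 12%. A limit of 20% gave 263 DHT and 28 Vehicle low-UMI macrophage barcodes in place of 261 and 27. Most of the group thus stood far from the limit, but not all of it.

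Sums of 5 gene lists went one way between DHT and Vehicle in low-UMI macrophage barcodes and the other way in deep C1q barcodes, and the difference between the sets was not tested. Osteoclast markers had a DHT over Vehicle ratio of 0.739 in low-UMI macrophage barcodes and 1.72 in deep C1q barcodes. TMM scaling moved every such log2 ratio in low-UMI macrophage barcodes up by 0.41, which takes the osteoclast ratio close to 1. Of 9 measured in the low-UMI ones, Clcn7, Tcirg1, Nfatc1 and Ctsk were lower, a share not far from the 36.1% of all genes. Immediate early and dissociation stress genes had 0.716 and 1.03, and lipid uptake, efflux and storage genes had 0.804 and 1.29. The immediate early log2 ratio in low-UMI macrophage barcodes ran from -0.61 to -0.053 across the settings. The lipid ratio in low-UMI macrophage barcodes turned above 1 under TMM and median-of-ratios scaling. Nuclear oxidative phosphorylation genes had 1.09 and 0.866, while the mitochondrially encoded mRNAs of the same complexes had 0.562 and 0.976. NRF2, ferritin and heme breakdown genes had 1.16 and 0.914, and in low-UMI macrophage barcodes of 800 to under 1500 UMIs their log2 ratio turned to -0.12. Slc7a11 and Hmox1 were higher and Blvra lower in the low-UMI barcodes, beside 15.9% and 36.1% of all genes, and nothing is drawn from these few genes.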

How the results depend on the processing

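The share ratio of 9.52 was 15.1 with a marker sum of at least 5 UMIs and 46.3 with at least 3 C1q UMIs, which left 1 Vehicle barcode. Counts of genes higher and lower in DHT, 593 and 1350, were 931 and 2297 at a minimum of 20 CPM, 254 and 681 at 100 CPM, 1347 and 807 under TMM and 1302 and 810 under median of ratios. A mean of at least 500 CPM, chosen after seeing the data, gave 14 and 25. Barcodes of 800 to under 1500 UMIs gave 303 of 3975 measured genes higher, and a marker sum of at least 5 gave 2126 of 4524 lower. Of the interferon list, 6 of 35 and 11 of 40 measured genes were higher under these last settings. The median log2 ratio of the list was 0 in both, where many Vehicle genes had no UMI. That median was 0.46 at 1500 to under 3000 UMIs, 0.26 at 20 CPM and 1.20 under median of ratios. The log2 ratio of the list's sum was 1.76 under TMM and 1.74 under median of ratios.

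Counts of genes higher and lower than deep C1q barcodes, 111 and 366, were 270 and 127 at 800 to under 1500 UMIs and 52 and 199 at 100 CPM. The higher count was 229 at 20 CPM, 198 with totals without mitochondrial, ribosomal protein and Gm42418 counts, 72 against deep barcodes with at least 3 C1q UMIs, 46 against thinned deep barcodes and 40 against deep barcodes with all 6 markers at 0.2%, a set chosen after seeing the data. The lower count was 195 with a marker sum of at least 5. Median-of-ratios scaling shifted every log2 ratio to the deep barcodes by 0.10 in the DHT library and -0.29 in the Vehicle library, and the totals named above by 0.12 and 0.03.

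Some log2 ratios whose 95% interval held no 0 changed sign, and the cause was not tested. For DHT over Vehicle at 800 to under 1500 UMIs these were Fth1 (-0.13), Malat1 (-0.12), mt-Co3 (0.082), Lpl (0.55), Hspa8 (0.094) and the NRF2 list (-0.12). With a marker sum of at least 5 they were Lpl (0.65) and the lipid list (0.20). Under TMM and median of ratios they were Cmss1 (0.26 and 0.25) and the lipid list (0.098 and 0.085).

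For low-UMI macrophage over deep barcodes with at least 3 C1q UMIs, both libraries turned for the macrophage list (0.63 in DHT and 0.86 in Vehicle), G2 and M phase genes (-0.75 and -0.75), C1qa (0.92 and 0.38), Lyz2 (0.88 and 1.14) and Ctsk (-0.85 and -0.35). That looser deep set held 1446 DHT and 2062 Vehicle barcodes. There the DHT library also turned for the interferon list (0.41), lysosomal genes (0.10), Pf4 (1.58), Ms4a7 (1.46) and Cd68 (0.24), and the Vehicle library for osteoclast markers (-0.34), Fth1 (0.57), Adgre1 (0.019) and Stab1 (0.025). Against thinned deep barcodes those that turned were the macrophage list (0.069 and 0.22), Lyz2 (0.23 and 0.23), DHT Pf4 (0.15), Apoe (-0.24) and Ms4a7 (0.010), and Vehicle Fth1 (0.010) and G2 and M phase genes (-0.24). With all 6 markers at 0.2% they were DHT Pf4 (0.00091), Ms4a7 (0.021) and Lyz2 (0.010), and Vehicle G2 and M phase genes (-0.29).
With a marker sum of at least 5 they were DHT Pf4 (0.22), and Vehicle Lyz2 (0.14), G2 and M phase genes (-0.15) and the macrophage list (0.038). At 800 to under 1500 UMIs they were DHT Fth1 (-0.36) and Vehicle Adgre1 (0.42). DHT Lyz2 was 0.035 with at least 3 C1q UMIs, and DHT Pf4 was 0.00098 with totals without mitochondrial, ribosomal protein and Gm42418 counts.

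Log2 ratios whose interval held 0 changed sign 40 times over 14 results. For DHT over Vehicle, lysosomal genes were 0.34 under TMM, 0.33 under median of ratios and 0.12 at 800 to under 1500 UMIs, and G2 and M phase genes were 0.26, 0.25 and, with a mitochondrial limit of 5%, 0.024. At 800 to under 1500 UMIs and with a marker sum of at least 5, Apoe was -0.72 and -0.35, Lyz2 -0.16 and -0.42, and the macrophage list -0.11 and -0.23. For Vehicle low-UMI macrophage over deep barcodes with at least 3 C1q UMIs, Ms4a7 was 1.63, Pf4 1.20, lysosomal genes 0.46, the interferon list 0.40 and Csf1r 0.13. Against thinned deep barcodes Ms4a7 was 0.038, Apoe -0.11, lysosomal genes 0.086 and the interferon list 0.098. Vehicle Cd68 was 0.15 with a marker sum of at least 5, Vehicle Pf4 0.40 at 800 to under 1500 UMIs, and DHT osteoclast markers 0.24 there.

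No paired analysis was possible because each group is 1 library. The 27 Vehicle barcodes and their 46939 UMIs set the precision of every comparison between the groups, and a Vehicle gene below 63.9 CPM is near the level of 3 counts.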
